A study of Rattus norvegicus with 24 samples.

Results

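The 7 complex I subunits encoded by the mitochondrial chromosome of the rat (ND1, ND2, ND3, ND4L, ND4, ND5 and ND6) were followed in 24 RNA sequencing libraries from 2 brain areas, the nucleus accumbens (NAc) and ventral tegmental area (VTA). The genes were chosen by their position on chromosome MT, with an annotated length of at least 200 nt, and not by their values. Earlier results of these data were known when that choice was made. They are 7 of the 32552 features in the count tables and 7 of 13 mitochondrial features of that length, called the MT mRNAs here. The other 6 MT mRNAs serve as the comparison list. The count tables carry Ensembl identifiers without symbols, so the subunit names follow from position. All 7 had counts in every library and passed the filter on low counts in every comparison.

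Complex I, NADH:ubiquinone oxidoreductase, is the entry point of electrons from NADH into the respiratory chain, and it pumps protons across the inner mitochondrial membrane. Its mitochondrially encoded subunits form the core of the membrane arm, and the remaining subunits come from nuclear genes. Mitochondrial mRNAs are cut from long transcripts of the whole chromosome. ND6 is the only protein gene read from the opposite strand, and ND4L and ND4 share 1 mature mRNA with overlapping reading frames. Neurons depend heavily on oxidative phosphorylation, and the NAc and the VTA are the striatal and midbrain ends of the mesolimbic dopamine pathway.

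The rats were Sprague Dawley and of both sexes, and the sources used here gave no age or fentanyl dose. The title of the series speaks of withdrawal from opioids and of choice between food and fentanyl, an opioid agonist. It is not read here as a description of the saline rats. Tissue was taken by bilateral punch when the last choice session would have been held, from fentanyl rats and from saline rats. For each sex there were 4 fentanyl and 3 saline libraries of the NAc. The VTA had 3 fentanyl and 2 saline libraries per sex. The 24 libraries came from 14 rats by the animal code in the labels, and 10 rats gave both regions. A punch holds all cell types of the area, and the identity of the tissue was not checked against marker genes because the identifiers could not be paired with symbols. In such bulk RNA, fewer cells of a type and less RNA per cell cannot be told apart. The p-values measure only the spread between these libraries.

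A library held 3460190 to 5011808 counts in the NAc and from 4493742 up to 6300965 in the VTA. Counts in mitochondrial features made up 22.1% to 36.7% of NAc and 17.6% to 26.9% of VTA totals. In NAc females they took 29.2% to 36.7% in fentanyl and 22.1% to 26.1% in saline rats, and in NAc males 26.9% to 28.4% and 24.9% to 31.3%. In VTA females the ranges were 21.4% to 26.9% and 19.4% to 21.0%, and in VTA males 21.3% to 25.4% and 17.6% to 18.4%. The part of this share in the fentanyl comparisons was not tested. The NAc library of female fentanyl rat 1 stood apart, with 36.7% mitochondrial counts and the fewest nuclear counts, 2238196. The main results of the NAc fentanyl comparisons that include it are also given without it. Group means, SDs and counts of subunits without overlap between groups include it. The 26 pairs of libraries within groups differed by more than sampling noise, with a chi-square per degree of freedom of 2.61 to 20.9. Levels below are counts per 1000 nuclear counts, which leaves mitochondrial RNA out of the denominator, and percent of the counts of the 13 MT mRNAs, which describes the composition of the mitochondrial mRNA pool. Those percentages sum to 100 within a library, so a higher share of 1 mRNA lowers the others.

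The 7 subunits together took 107 to 236 counts per 1000 nuclear counts in the NAc and 69.1 to 124 in the VTA. Their share of the MT mRNA counts was 38.3% to 43.6% in the NAc and 33.2% to 37.2% in the VTA, without overlap between the regions.

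The genes lie on chromosome MT in the coordinates of the count tables, whose genome build the sources used here did not state. ND1 (ENSRNOG00000030644, 2740 to 3694) encodes the subunit next to the ubiquinone site. ND2 (ENSRNOG00000031033, 3904 to 4942), ND4 (ENSRNOG00000029707, 10160 to 11537) and ND5 (ENSRNOG00000029971, 11736 to 13565) encode the antiporter-like subunits of the proton-pumping arm. ND3 (ENSRNOG00000033615, 9451 to 9798), ND4L (ENSRNOG00000031053, 9870 to 10166) and ND6 (ENSRNOG00000029042, 13543 to 14061, minus strand) encode small membrane subunits between the ubiquinone site and the pumps. The ND4L and ND4 features overlap by 7 bases on the same strand. ND5 and ND6 overlap by 23 bases on opposite strands, and the strand setting of the counting was not given, so reads in that overlap cannot be assigned with certainty.

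Levels per length differed widely between the 7 subunits. On the scale of CPM per kb, with the nuclear counts of a library as the total, ND1 was highest in every library, with a mean of 56272 ± 12650 (SD, n = 14) in the NAc and 35871 ± 7965 (SD, n = 10) in the VTA. ND5 (mean 32551), ND2 (28532) and ND4L (25804) followed in the NAc. ND3 (6888) and ND6 (6457) lay well below them, and ND4 was lowest at 670. The order of ND5 and ND2 differed between the regions, and within the NAc between groups. NAc saline females had the order of the VTA, with means of 24955.5 for ND5 and 25588.9 for ND2. ND5 exceeded ND2 in 12 of 14 NAc libraries, and ND2 exceeded ND5 in 10 of 10 VTA libraries, where the means were 21149 for ND2 and 17958 for ND5. ND3 and ND6 could not be ordered: ND3 was higher in 8 of 14 NAc and 5 of 10 VTA libraries. ND2 exceeded ND4L in 13 of 14 NAc libraries, and ND5 exceeded ND4L in 10 of 10 VTA libraries.

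ND4 was the exception among the pump subunits. It received 2040 to 4057 counts in NAc libraries over 1378 nt, against 16454 to 28087 counts for ND4L over 297 nt. Per length ND4L was 25.2 to 56.5 times ND4 over the 24 libraries, although the genes share 1 mRNA. The ratio was 45.3 ± 11.6 (SD, n = 4) in fentanyl and 26.9 ± 2.42 (SD, n = 3) in saline females in the NAc. Those groups overlapped, with a lowest fentanyl value of 29.0 and a highest saline value of 29.6. In NAc males the means were 46.5 in fentanyl and 37.6 in saline rats. In the VTA they were 35.1 and 32.0 in females, and 37.5 and 28.8 in males. The ratio was not tested. How reads with several alignments were counted was not given, and nuclear copies of mitochondrial sequence could take such reads, so the level of ND4 is uncertain. The cause of its low count was not tested.

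**Figure D1:**
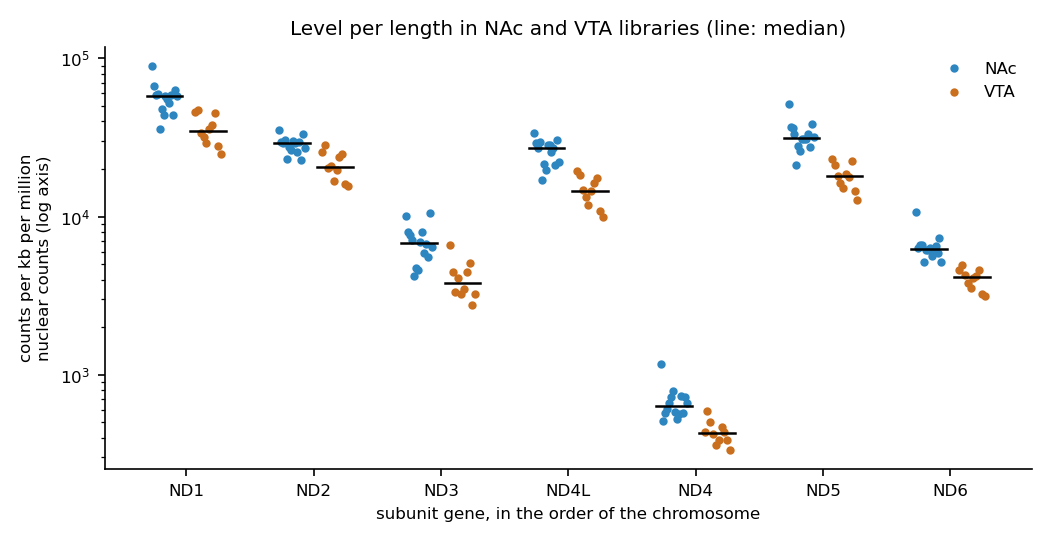
CPM per kb with nuclear counts as the total (log axis) of each subunit gene, 1 point per library, with the median as a line, in 14 NAc and 10 VTA libraries. ND1 was highest and ND4 lowest in every library, and each subunit had a lower median in the VTA than in the NAc.

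The first comparison asked which subunits differed between fentanyl and saline females in the NAc. By edgeR ND1, ND3, ND4L and ND5 rose, and ND2, ND6 and ND4 did not pass the test. Of all features tested, 13.5% were called in either direction and 8.05% rose. Among the subunits 4 of 7 rose, and among the other MT mRNAs 3 of 6. The median log2 fold change was 0.69 over the 7 subunits and 0.49 over the other 6, beside a median of -0.00012 over all features. The 6 subunits with an unadjusted edgeR p under 0.05, all but ND4, compare with 28.9% of all features. In the exact permutation test of log2 counts per nuclear count, no subunit passed the adjustment in NAc females. With 4 against 3 rats that test cannot give a p below 0.0286.

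ND1 had 85.2, 63.5, 55.9 and 56.8 counts per 1000 nuclear counts in the 4 fentanyl females (replicates 1, 2, 7 and 8). The 3 saline females (replicates 1, 2 and 4) had 33.9, 45.4 and 42.0. Every fentanyl female was above every saline female, and the log2 fold change was 0.77 ± 0.17 (SE; edgeR adjusted p = 0.00520).

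ND3 had 3.51, 2.76, 2.66 and 2.49 in fentanyl and 1.48, 1.64 and 1.59 in saline females, in counts per 1000 nuclear counts. The saline females lay close together and the groups did not overlap. Its log2 fold change, 0.94 ± 0.20 (SE; edgeR adjusted p = 0.00821), was the highest point estimate of the 7.

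ND4L had 10.1, 8.62, 8.05 and 8.74 in fentanyl and 5.05, 6.34 and 5.88 in saline females. Those groups were also separate, with a log2 fold change of 0.69 ± 0.14 (SE; edgeR adjusted p = 0.00233). This subunit shares its mRNA with ND4, which did not pass.

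ND5 had 93.7, 67.0, 66.7 and 61.1 in fentanyl and 38.9, 50.9 and 47.2 in saline females. The log2 fold change was 0.73 ± 0.17 (SE; edgeR adjusted p = 0.00591). Without saline replicate 1, which had the lowest ND5 of the 3, it was 0.62 with an adjusted p of 0.0500, just over the threshold.

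The other 3 subunits gave smaller differences. ND2 had 36.8, 30.9, 30.3 and 31.5 in fentanyl and 24.1, 28.4 and 27.2 in saline females, without overlap. Its log2 fold change was 0.36 ± 0.14 (SE; edgeR adjusted p = 0.0968), and 0.26 without fentanyl replicate 1 (edgeR adjusted p = 0.221). ND6, the subunit on the opposite strand, had 5.51, 3.30, 3.42 and 3.42 against 2.69, 3.18 and 3.17. Its log2 fold change was 0.45 ± 0.18 (SE; edgeR adjusted p = 0.0979), and 0.20 without fentanyl replicate 1. ND4 had 1.61, 0.708, 0.791 and 0.835 in fentanyl and 0.912, 0.993 and 1.08 in saline females. Replicate 1 was the highest of all 7, and the other 3 fentanyl females were below every saline female. Its log2 fold change was 0.07 ± 0.27 (SE; edgeR adjusted p = 0.900) with replicate 1 and -0.32 without it (adjusted p = 0.101).

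In counts per nuclear count, 6 of 7 subunits had every fentanyl female above every saline female in the NAc, against 10.0% of all features. Among the other MT mRNAs it was 4 of 6. Without fentanyl replicate 1 the same number of subunits, 4 of 7, was called and the median was 0.55. The log2 fold changes were then 0.58 for ND1, 0.79 for ND3, 0.60 for ND4L and 0.55 for ND5. Mitochondrial features under 200 nt, mostly at the positions of transfer RNAs, moved with this comparison. They took 3.27% to 6.64% of mitochondrial counts in fentanyl and 1.34% to 1.73% in saline females. Nuclear counts were 2238196 to 3258064 in fentanyl and 3297251 to 3751469 in saline females. The part of either in the result was not tested.

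**Figure D2:**
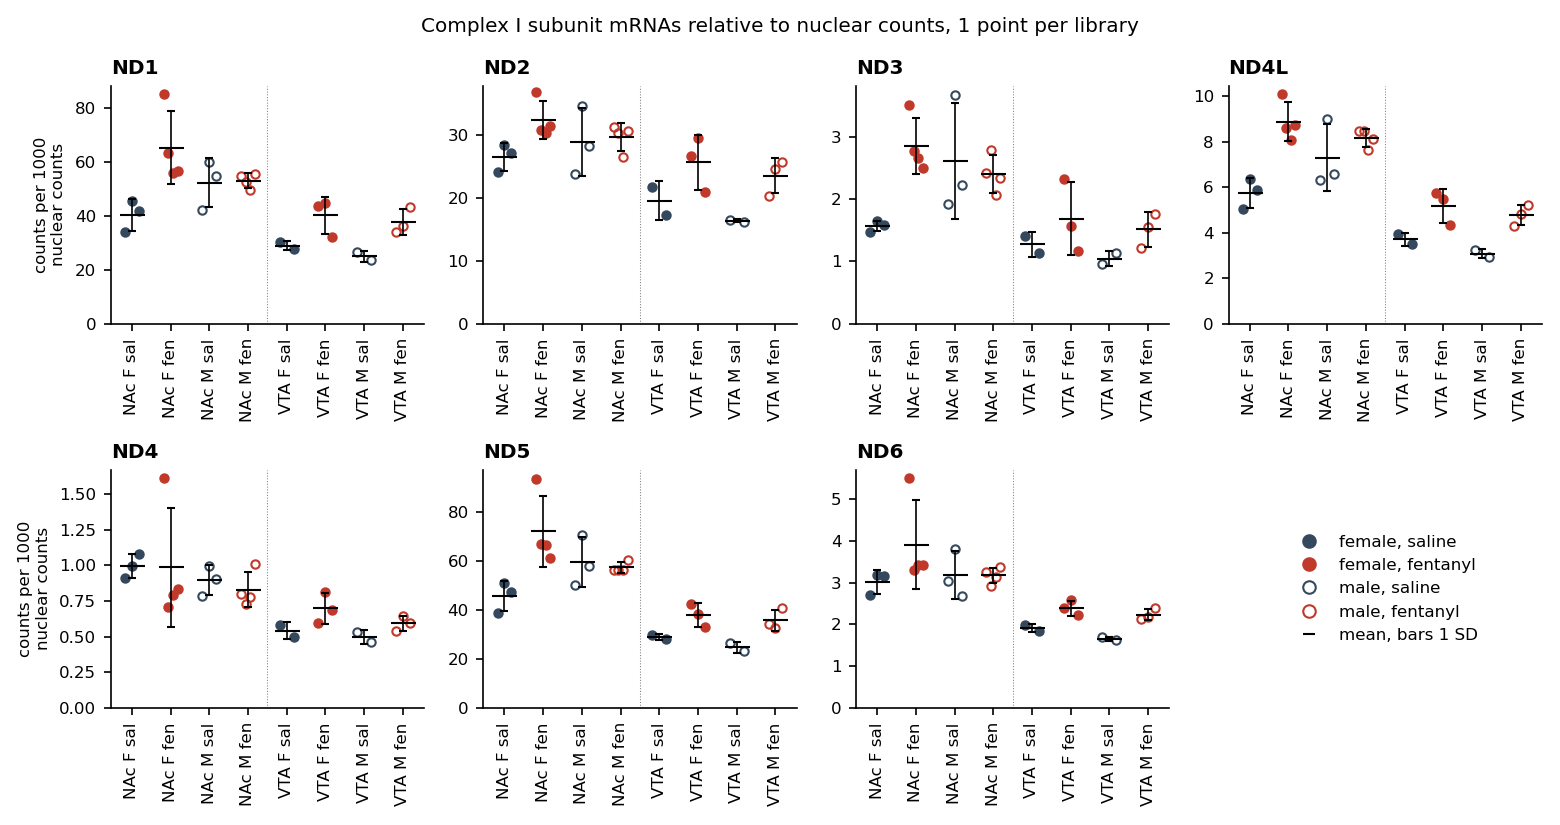
Counts per 1000 nuclear counts (linear axis from 0) of each subunit in the 8 groups, 1 point per library, with the mean and 1 SD. F and M are females and males, sal and fen saline and fentanyl. In NAc females all subunits but ND4 were higher in every fentanyl than in every saline library, and in NAc males the groups overlapped for all 7 subunits.

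In NAc males no subunit passed the test of fentanyl against saline. ND1 had 54.9, 52.5, 49.6 and 55.8 counts per 1000 nuclear counts in the fentanyl males (replicates 1, 2, 3 and 7) and 42.1, 59.9 and 55.0 in the saline males (replicates 1, 3 and 4). ND5 had 56.4, 56.3, 56.3 and 60.6 against 50.2, 70.6 and 58.0. The fentanyl males lay inside the range of the saline males for both genes, and saline replicate 3 was the highest male for ND1, ND2, ND3, ND4L, ND5 and ND6. By edgeR 0 of 7 passed, against 0.0% of all features, and 0 had an unadjusted p under 0.05, against 6.42%. DESeq2 also called 0 of 7, against 0.0453% of all features. The log2 fold changes ran from -0.13 (ND3) to 0.15 (ND4L), with a median of -0.01. For no subunit did every fentanyl male lie above every saline male, against 4.45% of all features.

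The difference between the female and the male effect was tested itself. In the NAc 0 of 7 subunits passed by edgeR, against 0.770% of all features, and 4 had an unadjusted p under 0.05, against 14.1%. ND3 gave a log2 difference of 1.07 ± 0.28 (SE; adjusted p = 0.0902) and ND5 0.80 ± 0.23 (SE; adjusted p = 0.0979). The values were 0.75 ± 0.24 (SE) for ND1 and 0.54 ± 0.19 (SE) for ND4L, with edgeR adjusted p of 0.136 and 0.181. DESeq2 called 3 of 7, against 1.96% of all features. By edgeR the count of 0 became 3 without the low-count filter, and 1 without fentanyl female 8 or without saline male 1. Without fentanyl female 1 edgeR called 0 of 7, and the log2 differences were 0.93 for ND3, 0.61 for ND5, 0.57 for ND1 and 0.44 for ND4L. Whether the response of these subunits differed between the sexes thus depended on the tool and on the filter.

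Averaged over the sexes, 2 of 7 subunits rose in the NAc by edgeR, against 7.51% of all features called and 4.52% called higher. ND4L rose by 0.42 ± 0.10 on the log2 scale (SE; adjusted p = 0.0119) and ND1 by 0.39 ± 0.12 (SE; edgeR adjusted p = 0.0465). ND3 (0.40) and ND5 (0.33) did not pass, with adjusted p of 0.0943 and 0.0788. The count of 2 was not stable: it ran from 0 to 4 when single libraries were left out, with 0 called when saline male 4 was left out and 4 when saline male 3 was left out. Without fentanyl female 1 the count was 1: ND4L kept its call at 0.37 (edgeR adjusted p = 0.0151), and ND1 lost it at 0.30 (edgeR adjusted p = 0.0651). The call of ND1 was lost in 11 of 19 alternatives. In the exact permutation test of log2 counts per nuclear count, ND4L alone passed for the mean of the sexes. It did not pass without fentanyl female 1 (exact permutation test, adjusted p = 0.102) or without saline female 1 (adjusted p = 0.0674).

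**Figure D3:**
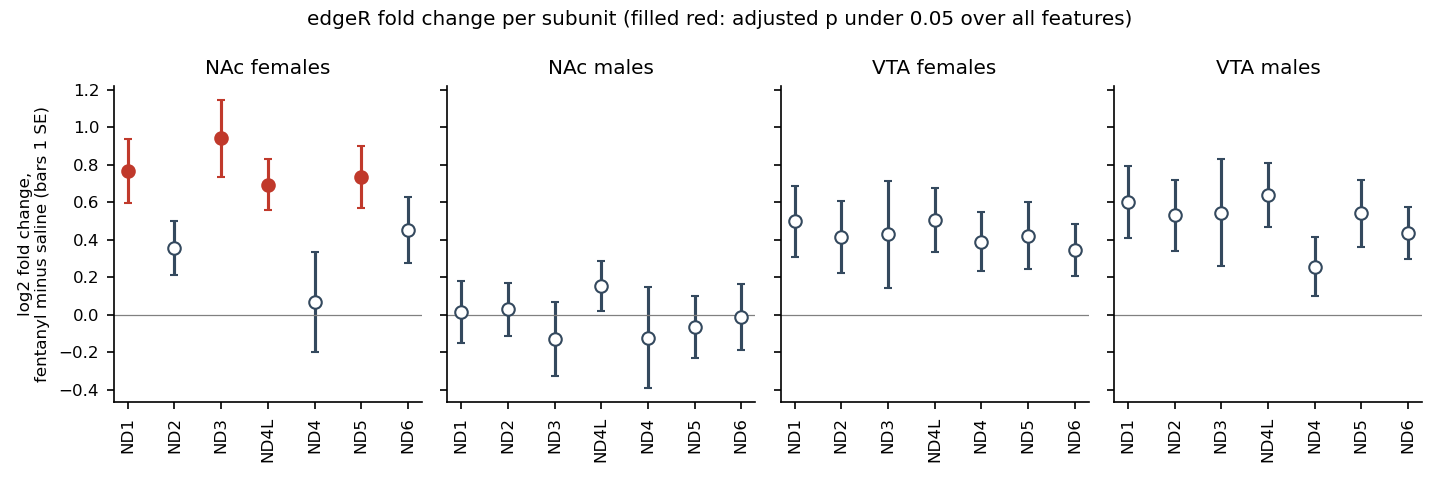
edgeR log2 fold change, fentanyl minus saline, of each subunit with 1 SE, in females and males of each region. Filled red points have an adjusted p under 0.05 over all features tested: ND1, ND3, ND4L and ND5 in NAc females. The VTA estimates lay between 0.26 and 0.64 in both sexes.

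In the VTA every subunit was higher in fentanyl than in saline rats on average, in both sexes, and none passed the threshold. The edgeR fit called 0.0% of all features in either sex. ND1 had 43.8, 44.7 and 32.4 counts per 1000 nuclear counts in the fentanyl females (replicates 1, 2 and 7) and 30.3 and 27.8 in the saline females (replicates 1 and 2). In males it had 34.0, 36.3 and 43.2 in fentanyl rats (replicates 1, 2 and 3) and 26.5 and 23.6 in saline rats (replicates 1 and 3). The groups did not overlap in either sex.

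ND4L had 5.75, 5.46 and 4.35 against 3.92 and 3.52 in females, and 4.31, 4.83 and 5.21 against 3.22 and 2.94 in males. ND5 had 42.5, 38.5 and 33.0 against 29.8 and 27.9 in females, and 34.1, 32.6 and 40.8 against 26.4 and 23.1 in males. Fentanyl rats were above saline rats of their sex throughout for both genes.

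ND6 had 2.38, 2.57 and 2.21 against 1.99 and 1.84 in VTA females, and 2.13, 2.17 and 2.39 against 1.69 and 1.62 in males. ND4 had 0.596, 0.814 and 0.689 against 0.582 and 0.499 in females, and 0.537, 0.644 and 0.596 against 0.533 and 0.462 in males. The groups of ND6 and ND4 did not overlap in either sex, and those of ND4 nearly touched. For ND2 and ND3 fentanyl female 7 lay between the saline females, so those groups overlapped.

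Across the VTA, 5 of 7 subunits had every fentanyl female above every saline female, against 10.1% of all features. In males it was 7 of 7, against 11.2%. Among the other MT mRNAs it was 4 of 6 in females and 6 of 6 in males. Separation in both sexes at once held for 5 of 7 subunits (ND1, ND4L, ND4, ND5 and ND6), against 1.97% of all features. Among the other MT mRNAs it held for 4 of 6. The MT mRNAs of a library share its nuclear denominator, so these are not separate observations.

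The edgeR log2 fold changes in the VTA ran from 0.34 to 0.50 in females (median 0.42) and from 0.26 to 0.64 in males (median 0.54). By edgeR 0 of 7 passed in each sex. An unadjusted p under 0.05 was found for 6 of 7 in females, against 7.62% of all features, and for 5 of 7 in males, against 4.50%. DESeq2 called 0 of 7 in each sex, against 0.257% of all features in females and 0.0486% in males. For the mean of the sexes edgeR called 0 of 7 and 0.0% of all features. All 7 subunits had an unadjusted p under 0.05 there, against 8.83% of all features, and so had 6 of 6 other MT mRNAs. ND4L gave 0.57 ± 0.12 (SE; edgeR adjusted p = 0.275), ND1 0.55 ± 0.13 (SE; adjusted p = 0.363) and ND4 0.32 ± 0.11 (SE; adjusted p = 0.456). DESeq2 called 4 of 7 for this mean (ND1, ND4L, ND5 and ND6), against 0.271% of all features. The female and male effects in the VTA differed by -0.14 to 0.13 on the log2 scale, and edgeR called 0 of 7, against 0.0% of all features. None had an unadjusted edgeR p under 0.05, against 3.31% of all features, and DESeq2 called 0 of 7, against 0.00694%.

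Short mitochondrial features took 2.92% to 4.16% of mitochondrial counts in fentanyl and 2.37% to 2.44% in saline males of the VTA. In VTA females they took 1.96% to 5.47% and 2.55% to 2.72%. Their part in the VTA values was not tested.

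The composition of the mitochondrial mRNA pool was compared next. ND1 and ND4L took a larger share of the MT mRNA counts in fentanyl rats of the NAc. The 7 subunits together took 42.2% ± 1.01 (SD, n = 4) in fentanyl and 38.8% ± 0.516 (SD, n = 3) in saline females. The share of ND1 in the NAc was 15.7%, 14.9%, 14.03% and 14.3% in fentanyl and 12.1%, 13.1% and 12.7% in saline females. In males it was 14.4%, 14.1%, 13.9% and 14.4% against 13.03%, 13.7% and 13.99%, where 1 fentanyl rat lay below the highest saline rat. With sexes kept apart, ND1 rose by 1.37 points (exact permutation p = 0.00163, two-sided; adjusted p = 0.0209 over 182 tests of shares). Without male saline replicate 1 the adjusted p was 0.0578. Without fentanyl female 1 the rise was 1.202 points (exact permutation test, adjusted p = 0.0459).

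The NAc share of ND4L was 1.86%, 2.03%, 2.02% and 2.19% in fentanyl and 1.81%, 1.83% and 1.78% in saline females. In males it was 2.22%, 2.28%, 2.13% and 2.10% against 1.96%, 2.05% and 1.67%. Fentanyl rats were above saline rats in each sex, and the rise of 0.254 points passed the exact permutation test (p = 0.00163; adjusted p = 0.0209). It passed in each of the 16 alternatives tried, with 0.281 points without fentanyl female 1 (exact permutation test, adjusted p = 0.0444).

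The remaining subunits did not pass in the NAc. Without fentanyl female 1, the summed share of the 7 subunits differed by 2.86 points between fentanyl and saline females, ND5 by 1.65 and ND2 by -0.750. ND5 took 16.3% ± 0.897 (SD, n = 4) in fentanyl and 14.3% ± 0.359 (SD, n = 3) in saline females, and 15.3% ± 0.440 (SD, n = 4) and 15.5% ± 0.689 (SD, n = 3) in males. ND2 had a lower share in every fentanyl female (6.79% to 7.92%) than in every saline female (8.17% to 8.64%), which held for 30.8% of the 13 MT mRNAs. In males the ND2 shares were 7.41% to 8.25% in fentanyl and 7.20% to 7.93% in saline rats, so the direction of ND2 was not shared by the sexes. Of the 13 MT mRNAs, 53.8% had a share above that of every saline female in every fentanyl female, among them 4 of 7 subunits (ND1, ND3, ND4L and ND5). In males the percentage was 7.69%, which is ND4L alone. Within 1 sex, 4 against 3 rats cannot give an exact permutation p below 0.0286, and no share passed the adjustment there.

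In the VTA the share of ND1 was 12.6%, 13.3% and 12.1% in fentanyl and 11.7% and 11.8% in saline females. In males it was 12.9%, 13.2% and 13.2% against 12.0% and 11.3%. ND4L took 1.65%, 1.62% and 1.63% against 1.51% and 1.5005% in females, and 1.64%, 1.75% and 1.60% against 1.46% and 1.41% in males. ND1 and ND4L were the 2 of 13 MT mRNAs (15.4%) with a higher share in every fentanyl rat, in females and again in males. With sexes kept apart, ND1 was higher by 1.18 points and ND4L by 0.177 points. The exact permutation p was 0.01 for each, the smallest that design can give, and the adjusted p was 0.0628, so neither passed. No other subunit reached it: ND5 gave 0.600 points (exact permutation p = 0.11) and ND2 0.365 points (p = 0.35).

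**Figure D4:**
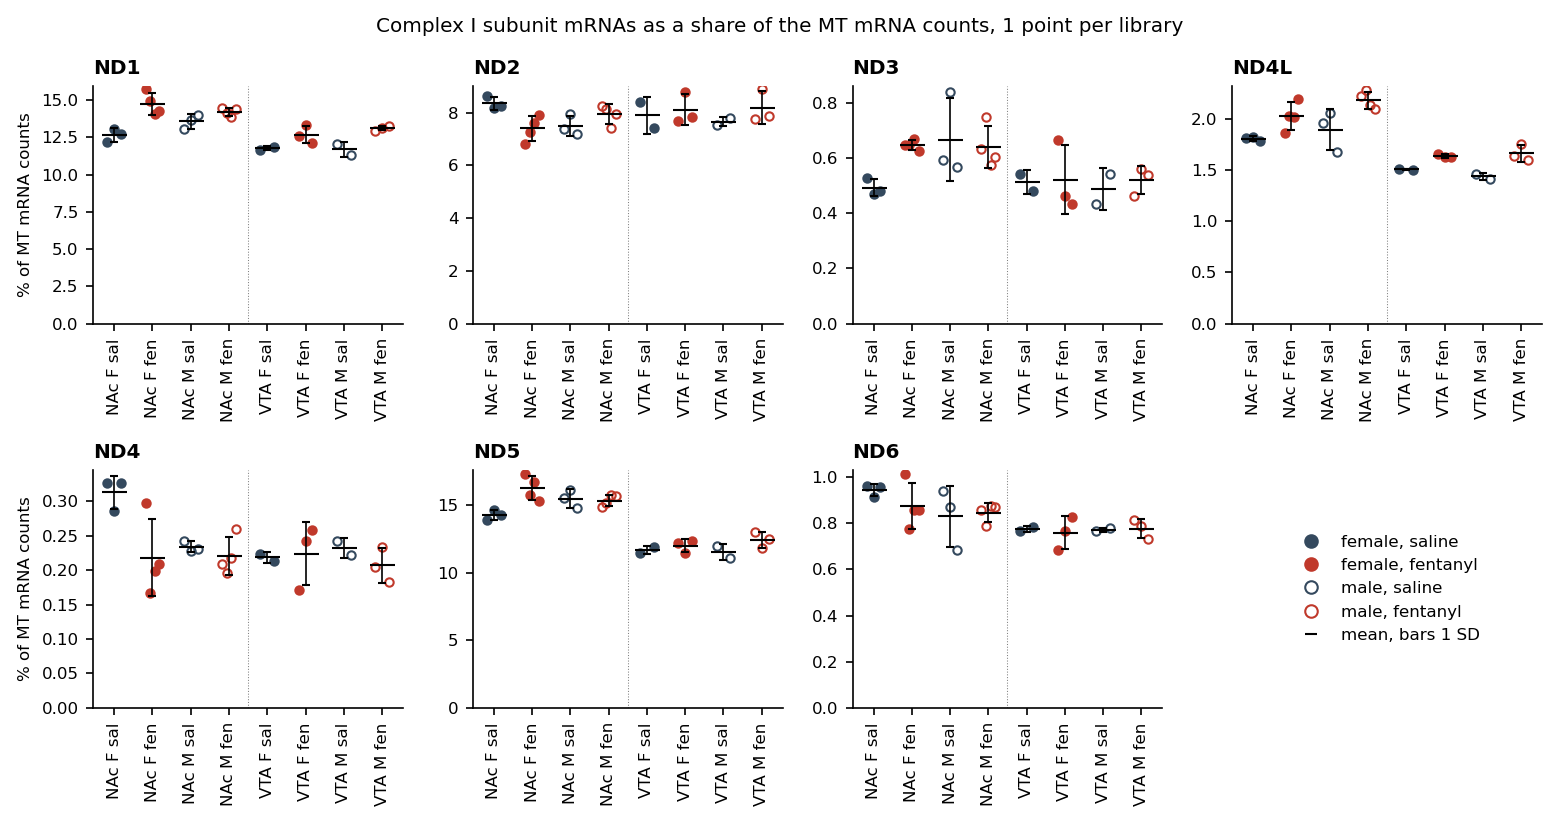
Share of the counts of the 13 MT mRNAs taken by each subunit (percent, linear axis from 0) in the 8 groups, 1 point per library, with the mean and 1 SD. ND4L was higher in every fentanyl than in every saline library of the same sex and region, and ND5 was lower in every VTA library than in every NAc library.

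The comparison of regions used the 10 rats with libraries of both. All 7 subunits were lower in the VTA than in the NAc by edgeR, 7 of 7 called, against 30.6% of all features called lower and 62.3% called in either direction. The log2 difference was -0.92 ± 0.10 (SE) for ND5, -0.90 ± 0.09 for ND4L, -0.83 ± 0.11 for ND3 and -0.75 ± 0.09 for ND6. It was -0.70 ± 0.10 (SE) for ND1, -0.66 ± 0.16 for ND4 and -0.51 ± 0.10 for ND2. The edgeR adjusted p was 0.00508 for ND4 and at most 0.000281 for the others. Of the other MT mRNAs 4 of 6 were called lower, with a median log2 difference of -0.44 against -0.75 for the subunits. The count stayed at 7 of 7 in all 15 alternatives of this fit, DESeq2 among them. The exact permutation test of log2 counts per nuclear count gave fewer: 6 of 7 passed (adjusted p = 0.0209 each). ND4, with a mean log2 difference of -0.59, did not pass that test (exact permutation p = 0.00781; adjusted p = 0.0628).

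ND5 fell from 60.7 ± 14.9 (SD, n = 10) counts per 1000 nuclear counts in the NAc to 32.9 ± 6.31 (SD, n = 10) in the VTA. The log2 ratio in single rats ran from -1.61 to -0.38, with a median of -0.83. Both ends of that range were saline rats, male replicate 3 and female replicate 1. All subunits but ND4 were lower in the VTA of 10 of 10 rats, which held for 17.6% of all features. ND4 was lower in 9 of 10, and its exception was fentanyl female 2, with 0.708 in the NAc and 0.814 in the VTA.

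Relative to the other MT mRNAs, ND5, ND1 and ND4L also had a lower share in the VTA. ND5 took 15.6% ± 0.999 (SD, n = 10) of MT mRNA counts in the NAc and 12.0% ± 0.557 (SD, n = 10) in the VTA, a difference of -3.60 points. ND1 differed by -1.47 points and ND4L by -0.440 points. All 3 were lower in 10 of 10 rats, with an exact permutation p of 0.00195, the smallest that 10 rats can give (adjusted p = 0.0209). ND6 differed by -0.116 points in 9 of 10 rats (exact permutation p = 0.0039; adjusted p = 0.0395), and that call was lost in 10 of 12 alternatives. ND2 (0.237 points), ND3 (-0.122) and ND4 (-0.017) did not pass, with exact permutation p of 0.311, 0.0176 and 0.416. The share of ND2 was higher in the VTA in 6 of 10 rats.

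**Figure D5:**
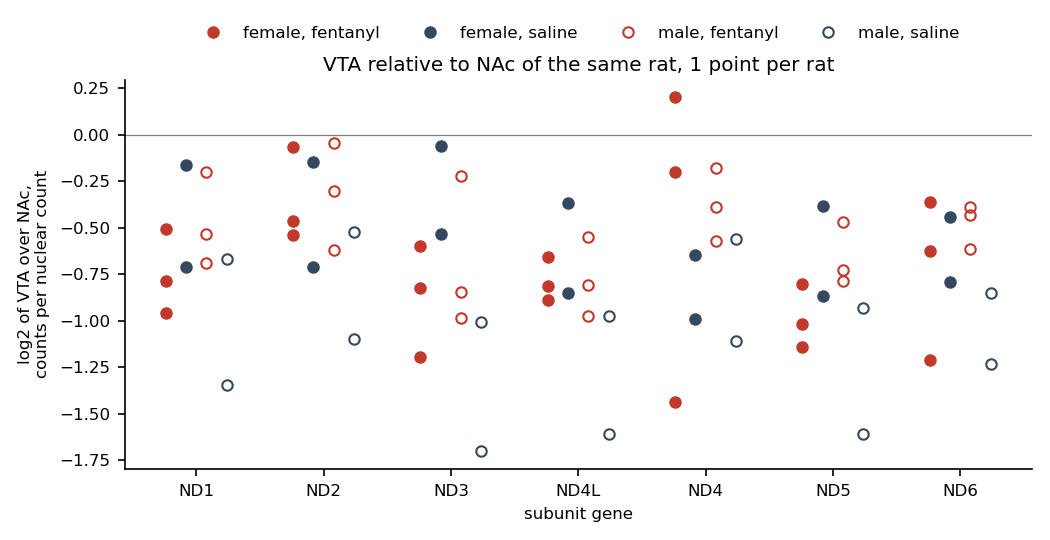
Log2 ratio of VTA to NAc of the same rat, in counts per nuclear count, for each subunit, 1 point per rat (10 rats). All points lie below 0 except ND4 in 1 fentanyl female at 0.20.

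Whether fentanyl moved the regional difference was tested in the same 10 rats. By edgeR 0 of 7 passed, against 0.0% of all features, and 0 had an unadjusted p under 0.05, against 5.68%. DESeq2 called 0 of 7, against 0.00676%. The log2 differences ran from 0.04 (ND3) to 0.40 (ND4), with a median of 0.17. Intervals were wide, with an SE of 0.18 to 0.31.

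Within groups the subunits varied together, but unevenly. After centring on the group means, and over the 24 libraries, ND1 and ND5 had a Pearson r of 0.93 and ND2 and ND4L one of 0.91 on log2 counts scaled to nuclear counts. ND4 followed the others least: its r was 0.28 with ND3 and 0.47 with ND4L, and 0.84 with ND6. Without female fentanyl rat 1 of the NAc the r of ND4 with ND6 was 0.68 and that with ND3 0.14. These values are a description, and they share the nuclear denominator of each library.

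Of 11654 nuclear features with a mean of at least 5 CPM, the 2 with a pattern most like the mean of the subunits were ENSRNOG00000009683 (r = 0.85) and ENSRNOG00000000921 (r = 0.85). Without that library they gave 0.79 and 0.85. Both were picked as the highest of 11654 values over 24 libraries, which raises their r, and neither was tested. The other MT mRNAs gave r of 0.45 to 0.91 and the subunits themselves 0.74 to 0.94. Each subunit is part of that mean, which raises its own r, so these ranges are not like for like.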

How the data were processed

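RNA of NAc and VTA punches was depleted of ribosomal RNA and sequenced as paired ends, per the labels. The authors deposited 1 table of raw counts per Ensembl feature for each library, without normalization. Tools named in the submitters' processing notes, without roles, are STAR 2.5.2b, Trimmomatic 0.36, DESeq2, Subread 1.5.2 and featureCounts. How multiply aligned reads were treated, the strand setting, the annotation and the genome build were not given in the sources used here. Members and lists were chosen with earlier results of these data known. All 7 subunits are named whatever their values.

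Groups were taken from region, sex and treatment in the labels. Counts were fitted with edgeR 4.0.16 in R 4.3.3 (TMM, filterByExpr, robust quasi-likelihood F test, two-sided, Benjamini-Hochberg over all features, threshold 0.05). Each region was 1 fit of its 4 groups (13248 features in the NAc and 14400 in the VTA), and the regions were compared with rat as a block (14795 features). That pairing comes from the animal code. SEs were derived from the F statistic. The fits were tested on simulated counts. Shares used log2 counts per 1000 nuclear counts and percent of MT mRNA counts, with two-sided exact permutation tests adjusted over 182 tests (13 MT mRNAs, 7 comparisons, 2 measures). No test was made on sums over the subunits. Alternatives were scaling on nuclear features, RLE factors, no low-count filter, DESeq2 1.42.0, a replicate block, fits of 2 groups, other denominators and leaving out each library. For correlations, log2 values had a prior count of 2. The lists of nuclear complex I subunits, assembly factors, mitochondrial RNA factors and cell type markers were not analysed here, since no table paired the identifiers with symbols.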

Additional observations from a re-analysis of the deposited data

Results flagged for a closer look

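In 3 of the 28 groups of 4 libraries examined (7 subunits, 2 fentanyl groups of the NAc and 2 measures), 1 library lay apart. Its gap to the next value was large relative to the range of the 4. Chance gives about 1 in 20 independent groups, or 1.4 of 28, but these groups share libraries and denominators. ND4 was 1.61 counts per 1000 nuclear counts in NAc female fentanyl replicate 1, against 0.708 to 0.835 in the other 3. ND6 was 5.51 in the same library, against 3.30 to 3.42. ND5 was 60.6 in NAc male fentanyl replicate 7, against 56.3 to 56.4 in the other 3, which lay close together. That value was inside the range of the NAc saline males, 50.2 to 70.6.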

How the results depend on the processing

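In NAc females the count of 4 of 7 subunits was 3 without female saline replicate 1, 5 by DESeq2 and 6 without the low-count filter. In VTA minus NAc it was 7 in every edgeR and DESeq2 alternative, and the permutation test of log2 counts per nuclear count passed 6 of 7. For the share of MT mRNA counts only ND1, ND4L, ND5 and ND6 passed. For the mean of the sexes in the NAc the count of 2 became 4 by DESeq2 and 0 with the replicate block, and 0 to 4 without single libraries. For the NAc sex difference the count of 0 became 3 without the filter and 3 by DESeq2, and 0 to 1 without single libraries. In the VTA the count of 0 became 1 in females, 3 in males and 6 for their mean without the filter, and 4 for the mean by DESeq2. The cause was not tested. The 3.34 points of the summed share in NAc females became 1.91 with all mitochondrial counts as the denominator, which adds the short features. Directions that changed belonged to uncalled values. For ND4 the log2 fold change of the NAc mean was 0.0784 with the replicate block. Without single libraries ND4 ran from -0.316 to 0.206 in NAc females, from -0.220 to 0.0421 for the NAc mean and from -0.192 to 0.328 for the NAc sex difference. Its log2 share of nuclear counts in NAc females ran from -0.356 to 0.0404. In points of MT mRNA counts, with sexes kept apart, ND6 ran from -0.0640 to 0.00026 in the NAc and from -0.0224 to 0.0136 in the VTA. In the VTA, ND3 ran from -0.0148 to 0.0483 and ND4 from -0.0185 to 0.0032. Whether the numbers in the animal code pair libraries within a region could not be decided. For same-numbered libraries of other groups the deviations gave a mean r of -0.0149 (12 NAc pairs) and 0.0041 (VTA, 10 pairs). The 2 regions of the same rat, a known pairing by the code, gave a mean r of only 0.0465 (10 pairs). A low mean r therefore cannot exclude a pairing. Leaving out a saline VTA library left 1 in its group, whose spread was taken as that of the other groups. The lowest count of ND4 in a library was 1958, in the VTA.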
